A study of Mus musculus with 22 samples.

Results

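The 9 genes described here encode chemokine ligands. They are Ccl2, Ccl3, Ccl4, Ccl5, Ccl12, Cxcl1, Cxcl10, Cxcl16 and Cx3cl1, taken by name from a fixed list. All 9 were found among the 53801 gene identifiers of the bulk count tables and among the 19324 genes of the single-cell matrix. They were measured in AdipoR1-/- mice (KO) and WT mice. Both carried the labelled strain C57BL/6J, and the KO allele, Adipor1tm1Dgen, had been backcrossed into that background. Retina and retinal pigment epithelium (RPE) at P30 were profiled by bulk RNA-Seq, with 4 libraries per genotype and tissue. The RPE was shaken off the posterior eyecup, so choroid and blood cells can enter these libraries. Dissociated retina at P19, P25 and P30 was profiled by single-cell RNA-Seq, with 1 library per genotype and age, each made from 4 retinae. The series asks what happens in the retina and RPE as photoreceptors degenerate without Adipor1.

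Chemokines are small secreted or membrane-held proteins that draw leukocytes along a gradient through G protein-coupled receptors. The inflammatory CC ligands among the 9 act on monocytes, macrophages, microglia and T cells: Ccl2 and Ccl12 bind Ccr2, and Ccl3 and Ccl5 bind Ccr1. Cxcl1 binds Cxcr2 and recruits neutrophils, while Cxcl10 is an interferon-inducible ligand of Cxcr3. Cxcl16 and Cx3cl1 (fractalkine) are made as transmembrane proteins and can be shed. In the retina Cx3cl1 is a neuronal ligand whose receptor, Cx3cr1, marks microglia.

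In GRCm38 coordinates of the GENCODE annotation all 9 are protein-coding genes. Ccl2 (ENSMUSG00000035385) lies at chr11:82035571-82037453 and Ccl12 at chr11:82101845-82103400, both on the plus strand. Further along the same chromosome lie Ccl5 at chr11:83525778-83530518 and Ccl3 at chr11:83647844-83649355 on the minus strand, with Ccl4 at chr11:83662584-83664683 on the plus strand. Cxcl16 is also on chromosome 11, at chr11:70453983-70459984 on the minus strand. Cxcl1 is at chr5:90891241-90893115 on the plus strand and Cxcl10 (ENSMUSG00000034855) at chr5:92346638-92348889 on the minus strand. Cx3cl1 (ENSMUSG00000031778) is at chr8:94772009-94782427 on the plus strand.

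Promoter windows of RefSeq (GRCm38.p6) were matched by symbol for 5 of the 9 genes, namely Ccl3, Ccl12, Cxcl1, Cxcl10 and Cx3cl1. Each window runs from 250 bases before to 50 bases after the gene's start in RefSeq, and positions below are counted from that start. For Ccl3, Cxcl1 and Cx3cl1 it differs from the start in the GENCODE coordinates above. Every window was searched on both strands for 4 motifs. These were the interferon-stimulated response element (GAAANNGAA), AP-1 (TGANTCA), the gamma-activated site (TTCNNNGAA) and the NF-kB consensus. The 250 bases before the start are shown for the 3 windows that held a match, with the matched letters in capitals.
Cxcl10, chr5:92348890-92349139, minus strand: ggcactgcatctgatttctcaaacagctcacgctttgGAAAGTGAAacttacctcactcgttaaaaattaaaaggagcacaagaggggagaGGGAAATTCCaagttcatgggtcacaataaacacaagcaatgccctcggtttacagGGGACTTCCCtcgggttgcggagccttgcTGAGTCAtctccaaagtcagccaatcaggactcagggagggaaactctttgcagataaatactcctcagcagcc
Cxcl1, chr5:90890995-90891244, plus strand: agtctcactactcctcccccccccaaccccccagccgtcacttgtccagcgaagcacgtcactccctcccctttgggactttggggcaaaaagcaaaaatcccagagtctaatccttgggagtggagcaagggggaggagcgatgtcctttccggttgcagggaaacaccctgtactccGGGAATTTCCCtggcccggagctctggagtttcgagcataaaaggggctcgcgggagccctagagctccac
Ccl3, chr11:83649379-83649628, minus strand: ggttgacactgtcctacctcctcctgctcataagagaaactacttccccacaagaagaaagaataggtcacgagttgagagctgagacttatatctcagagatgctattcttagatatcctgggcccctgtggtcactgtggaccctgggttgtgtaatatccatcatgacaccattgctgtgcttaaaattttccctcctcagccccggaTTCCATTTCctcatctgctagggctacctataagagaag

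The Cxcl10 window held matches to 3 of the 4 motifs. Counted from the gene's start, the interferon element GAAAGTGAA ran from -213 to -205, 2 NF-kB matches began at -159 (GGGAAATTCC) and -103 (GGGACTTCCC), and the AP-1 match TGAGTCA ran from -74 to -68. In the Cxcl1 window, 2 overlapping NF-kB matches, 1 on each strand, covered -71 to -61. Ccl3 held 1 interferon element on its minus strand, from -39 to -31, and the Ccl12 and Cx3cl1 windows held none of these letters. Of 32851 windows of the same length, 8.56% held the interferon element, 7.81% the AP-1 motif, 8.30% the gamma-activated site and 4.51% the NF-kB consensus. A match is a run of letters and not a measured binding site.

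Total counts ran from 22734843 to 35118164 in the retina libraries and from 20133143 to 38409496 in the RPE libraries. Adipor1 counts fell in KO retina, from 600.4 to 138.6 CPM (counts scaled to library size; log2 fold change -2.12), and in KO RPE, from 409.1 to 145.5 CPM (-1.49), and did not reach 0. The RPE libraries held 29440 to 45590 CPM of summed RPE markers against 56.81 to 168.3 CPM in the retina.

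In KO retina at P30, transcripts of Cxcl10, Ccl12 and Ccl5 rose from close to 0 in WT. Ccl2, Ccl3 and Ccl4 were at most 2 counts in any WT retina library and were counted in every KO retina library. Cxcl16 and Cx3cl1, the transmembrane ligands, were already the most abundant of the 9 in WT and differed least. A gene was called when edgeR's quasi-likelihood test gave an adjusted p below 0.05 and a fold of at least 1.5. Of 19381 genes tested in the retina, 7.00% were called higher and 3.04% lower in KO. Of the 9 ligands 5 passed the filter on low counts and 3 of these were called higher, but Ccl5, Ccl12 and Cxcl10 passed it only through their KO libraries, so that share carries no weight. Less RNA per cell and fewer cells of a type cannot be told apart in bulk libraries.

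Cxcl10, the Cxcr3 ligand, was at 0.0680, 0.106, 0.0377 and 0.0352 CPM in WT retina libraries 1 to 4 and at 2.12, 2.1, 3.59 and 2.82 CPM in the KO libraries. Every KO library stood far above every WT library, with 320 counts against 7 over the 4 libraries of each genotype. The log2 fold change was 5.32 ± 0.34 (SE, n = 4 and 4; edgeR adjusted p = 7.74e-08).

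Ccl12, a rodent ligand of Ccr2, was at 0.0680, 0.106, 0.0754 and 0 CPM in WT retina and at 0.714, 0.659, 0.609 and 0.631 CPM in KO. The KO libraries lay close together and above all WT libraries. Ccl12 rose by a log2 fold change of 3.31 ± 0.42 (SE, n = 4 and 4; edgeR adjusted p = 4.43e-05), from 7 to 81 counts. Ccl5 (RANTES), which also acts on T cells, was at 0.136, 0, 0.0377 and 0 CPM in WT and at 0.550, 0.479, 0.745 and 0.673 CPM in KO. Again the groups did not overlap, and the log2 fold change was 3.65 ± 0.56 (SE, n = 4 and 4; edgeR adjusted p = 0.000234). WT library 1 held 4 of the 5 WT counts of Ccl5, and without that library the log2 fold change was 5.23 (edgeR adjusted p = 8.97e-05).

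The other inflammatory ligands were too low for the filter. Ccl2, the ligand best known for recruiting Ccr2-bearing monocytes, was at 0, 0, 0.0377 and 0 CPM in WT retina and at 0.275, 0.150, 0.542 and 0.294 CPM in KO. Its 1 WT count against 38 KO counts gave a ratio of 34.8 per depth (95% interval 5.88 to 1410; intervals here are exact and cover counting error only). Ccl3 (MIP-1 alpha) was at 0, 0.0353, 0 and 0 CPM in WT and at 0.357, 0.270, 0.609 and 0.126 CPM in KO, a ratio of 39.4 (6.70 to 1590). Both ligands were counted in all 4 KO libraries and in 1 WT library each.

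Ccl4 (MIP-1 beta), the neighbour of Ccl3 on the chromosome, was at 0, 0.0705, 0.0754 and 0.0352 CPM in WT retina and at 0.275, 0.210, 0.338 and 0.294 CPM in KO. The groups were apart, and 5 against 34 counts gave a ratio of 6.22 (2.42 to 20.4). Cxcl1, the neutrophil attractant, was at 0.0340, 0.0705, 0 and 0.0352 CPM in WT and at 0.467, 0.0599, 0.102 and 0.294 CPM in KO. Its groups overlapped, since KO library 2 was below WT library 2, and 4 against 29 counts gave a ratio of 6.64 (2.33 to 26.0). Without any filter on low counts 5.04% of 33704 genes were called higher in KO, and so were 7 of the 9 ligands. The edgeR adjusted p was then 0.000114 for Ccl2, 7.5e-05 for Ccl3, 0.00249 for Ccl4 and 0.0158 for Cxcl1.

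Cxcl16, which binds Cxcr6 and acts as a scavenger receptor in its membrane form, was at 13.5, 12.3, 12.5 and 13.2 CPM in WT retina and at 19.0, 18.2, 19.5 and 20.1 CPM in KO. The groups did not overlap. The mean went from 12.9 ± 0.584 to 19.2 ± 0.782 CPM (SD, n = 4), a log2 fold change of 0.58 ± 0.06 (SE; edgeR adjusted p = 1.23e-05). At 1.49-fold it stayed just under the minimum fold and was not called. Cx3cl1 was at 90.9, 98.9, 93.9 and 98.1 CPM in WT and at 99.95, 96.1, 112.4 and 122.8 CPM in KO, with overlap between the groups (log2 fold change 0.17 ± 0.07, SE, n = 4 and 4; edgeR adjusted p = 0.0649).

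Across the retina, all KO libraries stood above all WT libraries for 7 of the 9 ligands, against 10.2% of all genes with at least 1 count. Among genes too low for the filter the share was 2.16%, and among the ligands 3 of the 4 such genes (Ccl2, Ccl3 and Ccl4).

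**Figure D1:**
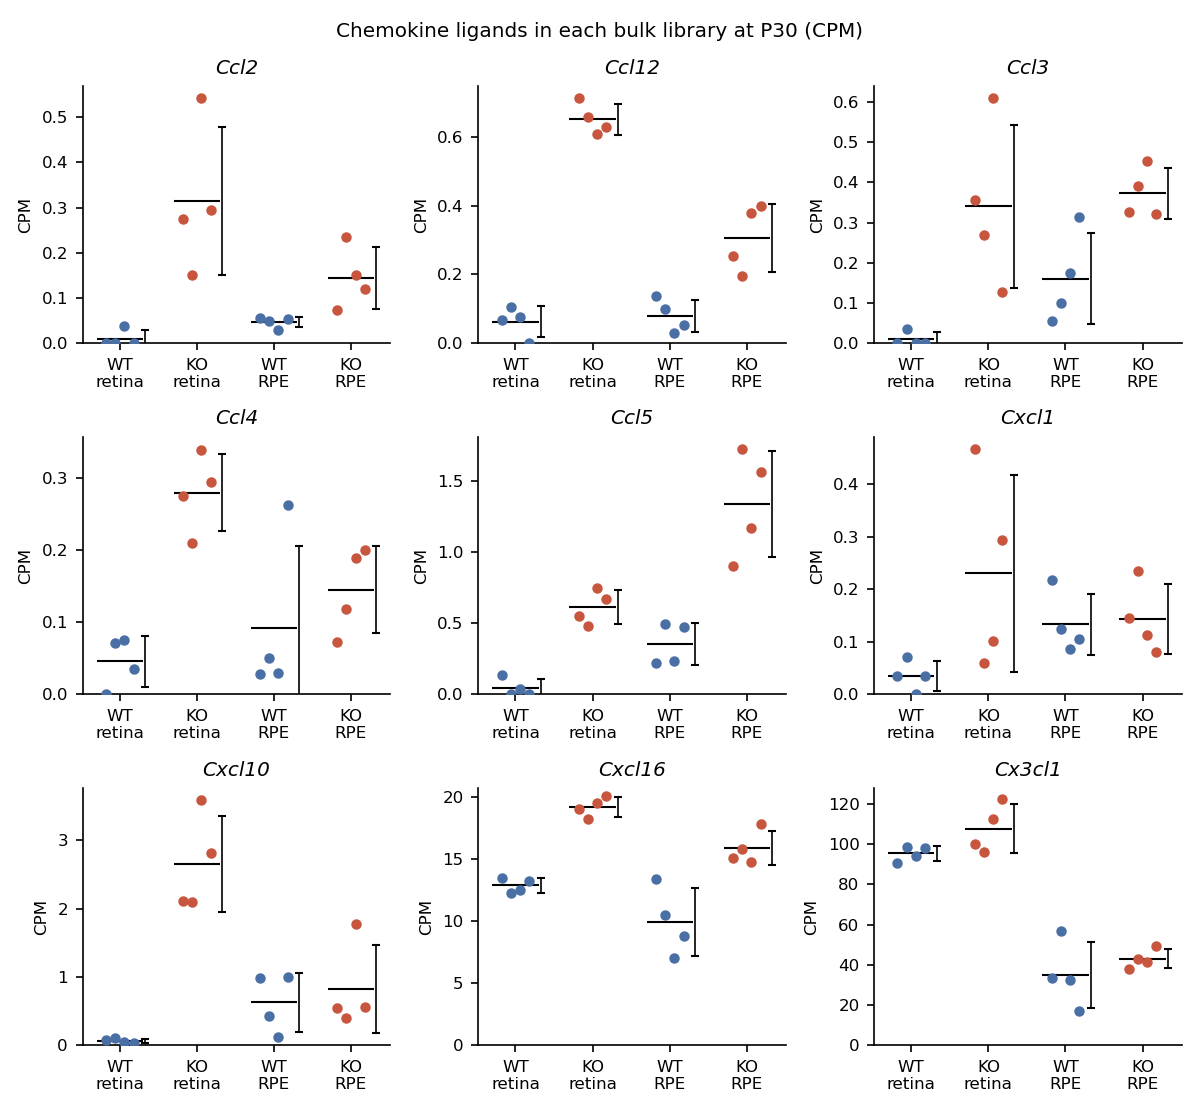
Level of each of the 9 ligands in every bulk library, in CPM on an axis of its own per panel, for WT and KO retina and RPE; points are libraries, horizontal lines are means and bars are SDs (n = 4). In the Cxcl10 panel the 4 KO retina libraries sit between 2.1 and 3.59 CPM and all WT retina libraries at or below 0.106 CPM, while WT and KO RPE libraries overlap.

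Per kilobase of exon, Cx3cl1 was the highest of the 9 in WT retina at 24.3 ± 0.944 RPKM (SD, n = 4), followed by Cxcl16 at 4.26 ± 0.193 RPKM. The other ligands were between 0.00828 RPKM (Ccl2) and 0.116 RPKM (Ccl12). In KO retina Cx3cl1 was at 27.4 ± 3.10 RPKM and Cxcl16 at 6.35 ± 0.259 RPKM. Next came Ccl12 at 1.22 ± 0.0847 RPKM and Cxcl10 at 1.18 ± 0.314 RPKM, whose libraries overlapped. Ccl5 followed at 0.637 ± 0.124 RPKM, below every Cxcl10 library. Ccl3 (0.445), Ccl4 (0.423), Ccl2 (0.277) and Cxcl1 (0.123 RPKM) came last, and each of these overlapped its neighbour in that order.

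Summed markers of several cell types moved with these ligands. All 14 microglia and macrophage markers, Cx3cr1 and Ctss among them, were called higher in KO retina. Of all genes tested there, 7.00% were called higher and 3.04% lower. Their summed level was 268.3 to 311.6 CPM in KO against 76.84 to 82.04 CPM in WT. Müller glia markers summed to 4428 to 4815 CPM in WT and 5714 to 6141 CPM in KO, with 2 of 8 called higher. These 2 were Clu (466.3 to 1477 CPM) and Apoe (459.6 to 973.7 CPM), whereas Glul went from 2171 to 1821 CPM. Slc1a3, Aqp4 and Dkk3 were higher by less than the minimum fold, and Rlbp1 and Car14 differed little. Rod markers summed to 58400 to 64680 CPM in WT and 29670 to 34570 CPM in KO, with 7 of 8 called lower. Endothelial markers were at 292.9 to 345.6 and 465.5 to 489.9 CPM, with 1 of 8 called higher. Blood monocyte markers were at 0.7399 to 1.304 and 2.665 to 4.884 CPM, with 1 of the 2 tested called, and neutrophil markers at 0.9513 to 1.395 and 2.967 to 3.826 CPM, with the 1 tested called. Each of these lists holds 6 markers, and the others were too low to test. Fibroblast markers were at 21.02 to 26.93 and 33.71 to 111.6 CPM (3 of 5 tested called) and B cell markers at 1.293 to 1.621 and 2.481 to 3.236 CPM (1 of 2 tested). T and NK cell markers stayed at 0.1762 to 0.4422 CPM in WT and 0.04205 to 0.6092 CPM in KO retina. The part of these cell types in the ligand differences was not tested in the bulk libraries.

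Per 1000 CPM of summed microglia and macrophage markers, Cxcl10 was at 0.456 to 1.33 in the WT and 7.81 to 11.5 in the KO retina libraries. Ccl12 was at 0 to 1.33 and 1.96 to 2.66, Ccl5 at 0 to 1.77 and 1.79 to 2.39, and Ccl2 at 0 to 0.459 and 0.558 to 1.74. For these 4 ligands the libraries did not overlap between genotypes, although the WT level of Ccl2 rests on 1 count and the highest WT value of Ccl5 on the 4 counts of library 1. Ccl3 overlapped on this scale, at 0 to 0.442 and 0.430 to 1.96, and so did Ccl4 and Cxcl1. Cxcl16 was at 163 (152 to 175) in WT and 67.4 (62.6 to 70.8) in KO. Cx3cl1 was at 1210 (1150 to 1270) and 377 (358 to 419) per 1000 CPM of markers. These 2 ligands did not overlap either, and were lower in KO. The share of all genes without overlap was not computed on this scale, so the number of such ligands carries no weight.

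In the RPE Ccl5 rose, and Cxcl10 had overlapping groups. Of 18989 genes tested there, 2.02% were called higher and 2.95% lower, and of the 4 ligands that passed the filter Ccl5 alone was called. Ccl5 was at 0.218, 0.494, 0.231 and 0.471 CPM in WT RPE and at 0.903, 1.72, 1.17 and 1.56 CPM in KO. No KO library was as low as a WT library. The log2 fold change was 1.93 ± 0.35 (SE, n = 4 and 4; edgeR adjusted p = 0.0166), and adjusted p = 0.0550 without KO library 2 and 0.0588 without KO library 4. Only 2 of the 4 WT libraries reached the count minimum for Ccl5.

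Cxcl10 in the RPE was at 0.979, 0.420, 0.116 and 0.994 CPM in WT and at 0.542, 0.392, 1.78 and 0.561 CPM in KO. The groups overlapped, with a log2 fold change of 0.42 ± 0.70 (SE, n = 4 and 4; edgeR adjusted p = 0.760). KO library 3 decided its sign, for without it the value was -0.29. Cxcl16 was at 13.4, 10.4, 6.99 and 8.79 CPM in WT RPE and at 15.1, 15.8, 14.7 and 17.8 CPM in KO, so all KO libraries were above all WT libraries. Its log2 fold change of 0.68 ± 0.19 did not pass (SE, n = 4 and 4; edgeR adjusted p = 0.0842), and it did pass without WT library 1 (log2 fold change 0.86, adjusted p = 0.0170). Cx3cl1 was at 33.2, 56.9, 32.2 and 17.0 CPM in WT RPE and at 38.1, 42.8, 41.4 and 49.6 CPM in KO (log2 fold change 0.30 ± 0.31, SE; edgeR adjusted p = 0.613). Rod markers, a measure of retina carried over, differed widely among the same WT RPE libraries, at 958.1, 15210, 15070 and 1451 CPM for libraries 1 to 4, and their part in the Cx3cl1 levels was not tested.

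The remaining 5 ligands did not pass the filter in the RPE. Ccl3 was at 0.0544, 0.0988, 0.173 and 0.314 CPM in WT and at 0.325, 0.392, 0.454 and 0.320 CPM in KO, a ratio of 2.71 (95% interval 1.51 to 5.04). Ccl12 had 11 counts in WT and 32 in KO, a ratio of 3.64 (1.79 to 8.01), and Ccl2 had 6 and 15 counts, a ratio of 3.13 (1.15 to 9.84). All 3 had KO libraries above every WT library in CPM. For Ccl2 the lowest KO library held 2 counts, as did WT libraries 1 and 2. For Ccl12 the lowest KO library held 5 counts, as did WT library 1. The separation of Ccl2 and Ccl12 thus rests on library depth at equal counts. Ccl4 (9 and 15 counts; 2.09, 0.855 to 5.41) and Cxcl1 (18 and 15 counts; 1.04, 0.489 to 2.19) had intervals that include equal levels. For 5 of the 9 ligands, Ccl2 and Ccl12 included, the RPE libraries did not overlap in CPM, against 4.69% of genes with at least 1 count. The share was 1.21% among genes too low for the filter. Without a filter Ccl5 was again the only ligand called, when 1.06% of genes were called higher.

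Microglia and macrophage markers were at 454.8 to 715.6 CPM in WT RPE and 847.2 to 952.9 CPM in KO RPE. Of these markers 12 of 14 were called higher, against 2.02% of all genes tested. T and NK cell markers were at 0.4711 to 1.197 CPM in WT and 1.59 to 2.35 CPM in KO RPE, with none called and Gzma the only marker tested (edgeR adjusted p = 0.0553). Blood monocyte markers were at 15.95 to 53.09 CPM and 27.78 to 73.19 CPM. Per 1000 CPM of microglia and macrophage markers every ligand overlapped between genotypes in the RPE, Ccl5 included (0.615 in WT and 1.46 in KO).

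The KO effect on Cxcl10 was smaller in the RPE than in the retina. The log2 difference of the 2 fold changes was -4.83 ± 0.93 (SE; edgeR interaction, adjusted p = 0.0043, 16 libraries). A KO effect lower in the RPE was called for 5.73% of the 21068 genes in that fit, and Cxcl10 was the only one called of 6 ligands tested. Ccl3 (-3.30 ± 1.07, adjusted p = 0.0704), Ccl5 (-1.68 ± 0.75, 0.198) and Ccl12 (-1.45 ± 0.67, 0.216) had differences of the same sign that did not pass the edgeR interaction test. The Ccl3 difference passed without KO retina library 4 (adjusted p = 0.0427) or WT RPE library 1 (0.0390), and the Ccl5 difference without WT retina library 1 (0.0403). Cxcl16 and Cx3cl1 had adjusted p-values of 0.742 and 0.845.

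The receptors of these ligands were described from a list of 23 chemokine receptors, chosen like the other lists by function. In the retina 6 were high enough to test and 2 rose, where 7.00% of all genes tested were called higher. A gene low in WT can pass the filter through its KO libraries alone, so this share carries no weight. In the RPE 1 of 10 rose, against 2.02% of all genes. The median log2 fold change of the tested receptors was 0.12 in the retina and 0.28 in the RPE, where all genes had medians of 0.00359 and -0.0185. Cx3cr1, the receptor of Cx3cl1, rose in retina from 4.43 ± 0.16 to 14.1 ± 1.68 CPM (SD, n = 4; log2 fold change 1.67, edgeR adjusted p = 2.46e-08). It rose in the RPE from 3.36 ± 0.80 to 10.4 ± 1.18 CPM (1.64, edgeR adjusted p = 0.00261).

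In the retina Ccr1, Ccr2, Cxcr2, Cxcr3 and Cxcr6 were too low to test. Ccr2, which Ccl2 and Ccl12 engage, had means of 0.00881 (WT) and 0.0595 CPM (KO) in retina. In the RPE Ccr2 was at 0.634 and 0.883 CPM (log2 fold change 0.46, edgeR adjusted p = 0.476). Cxcr3, the Cxcl10 receptor, had no count in WT retina and a mean of 0.0258 CPM in the KO libraries. Cxcr2 and Cxcr6 had no count in any retina library, and Ccr1 was at 0.0264 and 0.170 CPM. The scavenging receptor Ackr1 was at 81.4 and 80.6 CPM in retina (adjusted p = 0.851). Ackr2, a decoy for CC ligands, was at 0.328 and 0.186 CPM.

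Of 28 other chemokine ligands 8 were tested in the retina and 3 rose, against 7.00% of all genes. Their median log2 fold change was 0.04, and that of all genes 0.00359. Of the ligands that rose, Ccl6 had a WT mean under the filter's minimum of 0.337 CPM. It passed the filter through its KO libraries, so the share that rose carries no weight. Ccl28, an epithelial ligand, rose from 0.821 ± 0.285 to 4.27 ± 1.31 CPM (log2 fold change 2.36, edgeR adjusted p = 1.69e-05). Ccl9 rose from 2.64 ± 0.277 to 5.20 ± 0.466 CPM (0.98, 2.79e-05) and Ccl6 from 0.257 ± 0.116 to 0.849 ± 0.259 CPM (1.70, 0.00191). Cxcl12, which keeps leukocytes in place through Cxcr4, went from 29.9 to 22.1 CPM (-0.44, adjusted p = 9.67e-05) and was not called for its fold. None of 11 passed in the RPE with edgeR, where 1, Cxcl17, had an unadjusted p under 0.05 (0.0365).

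Enzymes that cut Cx3cl1 and Cxcl16 from the membrane formed a list of 9, all tested, of which 3 rose in the retina and 2 in the RPE, against 7.00% and 2.02% of all genes. The median log2 fold changes were 0.07 and 0.21. Cathepsin S (Ctss), a microglial protease that releases Cx3cl1, rose in retina from 10.5 ± 1.00 to 48.8 ± 3.92 CPM (log2 fold change 2.22, edgeR adjusted p = 3.01e-10). It rose in the RPE from 9.60 ± 2.76 to 43.0 ± 6.55 CPM (2.17, 0.00181). Adam10 and Adam17, the main sheddases of both ligands, were at 46.9 and 49.3 CPM (adjusted p = 0.385) and at 37.4 and 34.9 CPM (0.193) in WT and KO retina.

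Lists of factors and targets of pathways known to induce chemokines were counted next, for which the shares over all genes, 7.00% called higher in the retina and 2.02% in the RPE, are again the background. Of 17 interferon factors and targets, all tested, 14 rose in the retina (median log2 fold change 1.78) and 1, Gbp3, rose in the RPE (median 0.44). In retina Gbp2, an interferon-induced GTPase, rose from 2.77 ± 0.486 to 17.1 ± 0.53 CPM, and Irf9, a transcription factor of the interferon pathway, rose from 22.1 ± 0.778 to 51.3 ± 3.77 CPM (edgeR adjusted p = 1.04e-09 and 7.9e-09). Of 22 NF-kB and AP-1 factors and targets 15 rose and 1 fell in the retina (median 1.1), and 5 of 21 rose in the RPE (median 0.60). Mx1 of the interferon list and Bcl3 and Fosl1 of the NF-kB list had WT retina means under the filter's minimum of 0.337 CPM. They passed the filter through their KO libraries, so the retina shares of these lists carry no weight. Bcl3, an NF-kB cofactor, rose in retina from 0.274 ± 0.0445 to 23.2 ± 2.47 CPM (log2 fold change 6.38, 1.69e-12). Tnfaip3, which restrains NF-kB, fell from 404.8 ± 18.9 to 154.5 ± 11.8 CPM (-1.39, 9.1e-10). In the single cells 50.9% of the Tnfaip3 UMIs were in rods. The part of the lower rod markers of KO retina in this fall was not tested.

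Of 20 inducing cytokines and their receptors 13 were tested, and 6 rose in the retina and 2 in the RPE (all genes 7.00% and 2.02%). The median log2 fold changes were 0.48 and 0.61. The oncostatin M receptor Osmr rose in retina from 7.31 ± 0.856 to 45.9 ± 1.91 CPM (log2 fold change 2.65, edgeR adjusted p = 5.12e-11) and in the RPE from 239.7 ± 45.6 to 940.3 ± 48.6 CPM (1.97, 0.00048). Tnfrsf1a, the TNF receptor, rose in retina from 6.35 ± 0.975 to 24.5 ± 2.5 CPM (1.95, 1.73e-08) and in the RPE from 81.7 ± 12.7 to 153.9 ± 6.73 CPM (0.91, 0.00315).

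For each ligand with a group mean of at least 0.5 CPM the nearest genes were ranked over the 16 bulk libraries by the root mean square distance of centred log2 CPM. This is a description over libraries of 2 tissues and 2 genotypes, among 17324 or 17323 candidates. Nearest to Ccl5 were the macrophage genes Adgre1 (0.445), Tyrobp (0.471) and C1qb (0.479). Nearest to Cxcl10 were Slc6a2 (0.698), the glial filament gene Gfap (0.719) and Cryzl2 (0.772), all farther off than the first neighbours of the other ligands. Zbtb7c (0.404), Ptgfr (0.411) and Akr1b8 (0.426) lay nearest to Ccl12. Etv6 (0.107), Tppp3 (0.139) and Crybg3 (0.151) lay nearest to Cxcl16, and L1cam (0.132), Adap1 (0.145) and Ttc9 (0.177) nearest to Cx3cl1.

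The single-cell matrix held 26764 cells, between 2558 (WT P30) and 5633 (KO P25) per library, with median depths of 1349 to 4357 UMIs per cell. The P30 libraries were the shallowest and came from another sequencing run than the P19 and P25 libraries, so age and run cannot be told apart. Up to 15 cell barcodes were shared by a pair of libraries. With 1 library per genotype and age no difference between genotypes was tested, and the intervals are for counting error alone. A CPM in these cells relates the UMIs of a gene to all UMIs of the class or library. Clusters were named by markers, as microglia-like (133 cells, 14 of 14 markers detected), Müller-like (2106 cells) and so on. The microglia-like cells made up 0.313% (17 cells), 0.160% (7) and 0.156% (4) of the WT libraries at P19, P25 and P30. They were 0.604% (32), 0.710% (40) and 0.952% (33) of the KO libraries.

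The ligands divided into 3 patterns of source cells. Ccl3, Ccl4 and Ccl12 came almost entirely from microglia-like cells, with 99.2%, 98.4% and 98.7% of their UMIs. Ccl5 and Ccl2 had 77.1% and 65.0% (exact 95% interval 61.3 to 68.5) of their UMIs there, and 20.0% and 28.9% in Müller-like cells. Cxcl10 and Cxcl16 came mainly from Müller-like cells, with 75.7% (73.2 to 78.2) and 91.3% of UMIs. Cxcl10 UMIs were also in microglia-like (9.69%), astrocyte-like (8.49%) and endothelial-like cells (3.52%). Cxcl1 UMIs were in Müller-like (52.5%), endothelial-like (19.4%) and pericyte-like cells (8.70%), and in clusters left unnamed (14.4%), with 0 in microglia-like cells. Cx3cl1 was mainly neuronal, with 60.0% of UMIs in amacrine-like, 17.3% in bipolar-like and 9.74% in ganglion-like cells. Endothelial-like cells held 2.65% of its UMIs at 44.3 CPM, with a UMI in 31.6% of cells, against 35.6 CPM and 10.3% of the shallower bipolar-like cells. Ccl4 was among the 10 leading genes of the microglia-like cluster and so helped to define it.

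**Figure D2:**
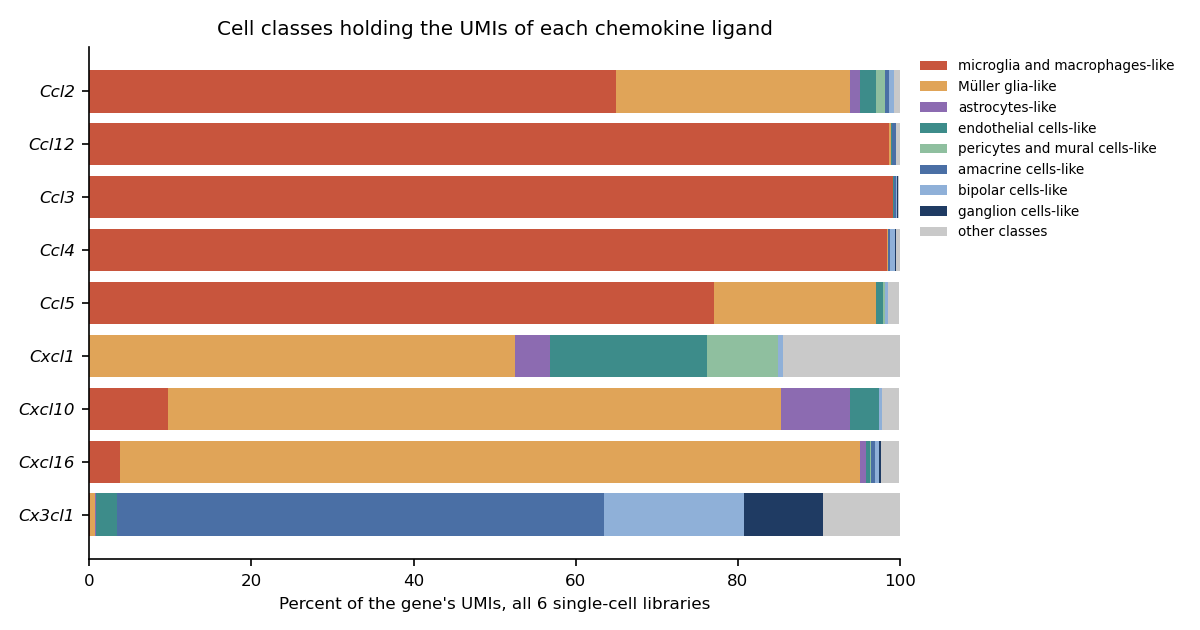
Percent of each ligand's UMIs that came from each cell class, as stacked bars over all 6 single-cell libraries. Microglia-like cells hold over 98% of the bars of Ccl3, Ccl4 and Ccl12, Müller-like cells most of those of Cxcl10 and Cxcl16, and amacrine-like cells 60.0% of that of Cx3cl1.

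Few cells carried the inflammatory ligands. Cxcl10 had 1166 UMIs in 110 cells, of which 1 cell held 225 (19.3%) and 7 cells held 50%. Ccl5 had 350 UMIs in 47 cells, and Ccl2 had 691 UMIs in 72 cells. In contrast Cxcl16 had 2608 UMIs in 1417 cells and Cx3cl1 4753 UMIs in 3185 cells, with no more than 13 in any cell. Among the 133 microglia-like cells 60 held both Ccl3 and Ccl4, which was 75.0% of the cells with Ccl3 and 87.0% of those with Ccl4. Ccl2 and Ccl12 were held together by 35 cells, 83.3% of those with Ccl2 and 43.2% of those with Ccl12.

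Within microglia-like cells Ccl2, Ccl3 and Ccl4 were not higher per UMI in KO than in WT beyond their counting intervals. Summed over the 3 ages, Ccl3 was at 2114 CPM in WT (28 cells) and 1805 in KO (105 cells), a ratio of 0.854 (95% interval 0.734 to 0.998). Ccl4 was at 2846 and 3036 (ratio 1.07, 0.938 to 1.22) and Ccl2 at 721.8 and 708.8 (ratio 0.982, 0.759 to 1.29). The WT levels rest on few cells, 4 of them at P30. Ccl12 was at 1268 and 1618 (ratio 1.28, 1.05 to 1.55), and its ratio was 2.49 at P19, 0.782 at P25 and 6.66 at P30, the last from 2 WT UMIs.

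Ccl5 was higher in KO cells of this class. Over all ages it was at 30.9 CPM in WT (3 UMIs in 1 cell) and 499.4 in KO (267 UMIs in 27 cells), a ratio of 16.1 (5.46 to 78.8). The KO level was 390.5 at P19, 512.1 at P25 and 854.6 at P30, against 60.6, 0 and 0 in WT. In WT 3 counts would be 74.9 at P25 and 406 at P30. At P19, 76 of the 81 KO UMIs were in 1 cell. The pooled ratio without the KO cell holding the most Ccl5 was 11.5, and the KO level without 1 P25 cell that held at least 2 T and NK genes and no C1q UMI was 420.2. Cxcl16 was also higher in KO microglia-like cells, with 41.2 against 179.6 CPM (ratio 4.35, 1.65 to 16.3) from 4 and 96 UMIs. By age its ratio was 3.58 (0.909 to 30.9) at P19, 8.64 (1.49 to 347) at P25 and 0.962 (0.124 to 43.4) at P30. Cxcl10 was at 206.2 and 173.9 in this class (ratio 0.843, 0.516 to 1.44). The ages differed in direction, with a Cxcl10 ratio of 0.402 (0.221 to 0.751) at P19, from 19 WT UMIs, and of 8.20 (1.41 to 330) at P25, from 1 WT UMI.

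KO Müller-like cells held more Cxcl10, Cxcl1, Ccl2 and Ccl5 than WT Müller-like cells. Immediate early genes, which respond to handling of cells, summed to 16150 CPM in WT and 24360 in KO cells of this class at P19, to 12150 and 12120 at P25 and to 947.1 and 1316 at P30, and their part in these levels was not tested. Cxcl10 was at 8.88 CPM in WT and 129.2 in KO, a ratio of 14.5 (10.2 to 21.5), or 10.7 without the KO cell with the most. By age the WT and KO levels were 0.655 and 234.7 at P19, 17.6 and 72.2 at P25, and 0 (3 counts would be 11.8) and 30.7 at P30. The KO level was the higher at each age, and all 30 WT UMIs at P25 were in 1 cell. Cxcl10 was seen in 57 of 1229 KO cells (4.64%) and 2 of 877 WT cells (0.228%). At a depth thinned to 1000 UMIs, leaving out 40 KO and 60 WT cells, the shares were 2.61% and 0.143%. In rods, taken as cells that should lack it, the shares were 0.0599% in KO and 0 in WT, at median depths of 1092 and 1077 UMIs against 4865 and 3784 in Müller-like cells.

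Cxcl1, Ccl2 and Ccl5 followed in the same class. Cxcl1 was at 2.29 CPM in WT and 22.6 in KO Müller-like cells (ratio 9.86, 4.87 to 23.3), with 18.1, 26.1 and 18.4 at P19, P25 and P30 in KO against 3.27, 1.17 and 3.95 in WT. Ccl2 had no UMI in 877 WT cells and 200 UMIs in 13 KO cells. Against a floor of 3 counts over the WT class this was 35.3-fold higher, and 19.2-fold without the KO cell with the most. With so few cells holding the UMIs, such a fold is no lower bound. Ccl5 had none in WT and 70 UMIs in 11 KO cells, 12.3-fold higher against the same floor. Cxcl16 went the other way per UMI when the ages were summed, at 272.4 in WT and 216.9 in KO (ratio 0.796, 0.733 to 0.865). By age its ratio was 0.724 (0.633 to 0.828) at P19 and 0.825 (0.737 to 0.925) at P25. At P30, the age of the bulk libraries, it was 0.93 (0.675 to 1.29), an interval that includes equal levels. Most P19 and P25 Müller-like cells fell in 1 cluster and most P30 cells in another.

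**Figure D3:**
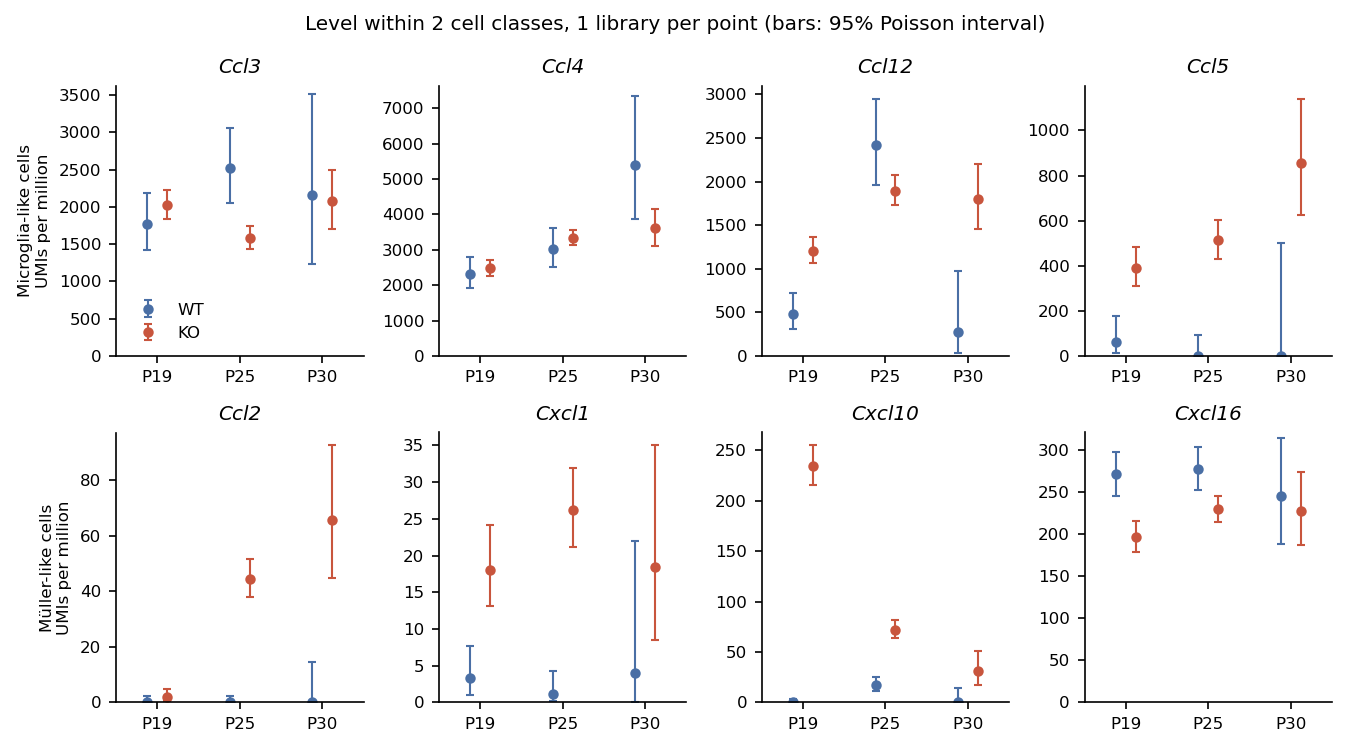
CPM in microglia-like cells (top row, Ccl3, Ccl4, Ccl12 and Ccl5) and in Müller-like cells (bottom row, Ccl2, Cxcl1, Cxcl10 and Cxcl16), for the WT and KO library of each age; bars are exact 95% Poisson intervals of the counts. KO Müller-like cells lie above WT for Cxcl10 at all 3 ages, at 234.7, 72.2 and 30.7, while Ccl3 in microglia-like cells runs from 1777 to 2522 in WT and from 1584 to 2081 in KO.

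The Müller-like cells with Cxcl10 had high interferon gene levels. The 16 listed interferon genes found in the matrix summed to 6283 CPM in the 57 KO cells with a Cxcl10 UMI, to 1380 in the other 1172 KO cells and to 373.1 in the 875 WT cells without. The summed NF-kB and AP-1 list was at 21080 and 21980 in KO cells with and without Cxcl10. By age it was 32740 and 32850 at P19, 18040 and 17140 at P25, and 5372 (4 cells) and 2940 at P30. Most UMIs of this list are of immediate early genes, such as Fos (109249 in all cells) and Jun (69618). Nfkb1 had 2190 and Rela 1480, so the sum cannot show how NF-kB genes differ. The 13 KO Müller-like cells with Ccl2 were at 8831 for the interferon list, against 1562 in the rest. The 47 with Cxcl1 were at 2444 against 1612 for the interferon list and at 26690 against 21720 for the NF-kB and AP-1 list. The interferon sum of cells with Cxcl1 was the lower at P19 (720.6 against 1095) and the higher at P25 (3300 against 2007). For Cxcl10 it was the higher at both ages, at 9039 against 778.3 and 5547 against 1812. Cxcl1 and Cxcl10 were found together in 12 Müller-like cells, 22.2% and 20.3% of the cells with each.

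Endothelial-like and astrocyte-like cells held fewer Cxcl1 and Cxcl10 UMIs than the more numerous Müller-like cells, but their levels were not all lower. Over all libraries Cxcl10 was at 178.9 CPM in microglia-like, 143.9 in astrocyte-like, 87.5 in Müller-like and 14.4 in endothelial-like cells. Cxcl1 was at 57.6 CPM in pericyte-like, 20.4 in endothelial-like and 15.6 in Müller-like cells. Endothelial-like cells held Cxcl1 at 3.84 CPM in WT and 40.6 in KO (ratio 10.6, 4.54 to 30.1). They held 41 Cxcl10 UMIs in 4 KO cells and none in WT. Against a floor of 3 WT counts this was 16.7-fold higher, or 8.54-fold without the KO cell with the most. With so few cells this is no lower bound. Astrocyte-like cells held Cxcl10 at 86.2 and 167 (ratio 1.94, 1.14 to 3.49), which turned to 0.567 without 1 KO cell. For Cx3cl1 the amacrine-like cells were at 86.5 and 90.6 (ratio 1.05, 0.972 to 1.13) and the ganglion-like cells at 87.2 and 109 (1.26, 1.04 to 1.51). By age the ganglion-like ratio was 1.09 (0.846 to 1.41) at P19, 1.66 (1.23 to 2.24) at P25 and 0.668 (0.264 to 1.57) at P30. Median depths of these cells were 2250 UMIs in WT and 19836.5 in KO at P19, and 18685 and 2491 at P25.

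The receptors differed in their source cells. Cx3cr1 had 97.4% of its 1164 UMIs in microglia-like cells, at 1800 CPM, and Ccr1 94.4% of 54. Ackr2 had 82.6% of 46 UMIs in endothelial-like cells, Ackr1 41.1% of 10190 in amacrine-like cells and Cxcr6 30.2% of 43 in rods. Ccr2 and Cxcr3 had 0 UMIs. Ctss had 99.0% of its UMIs in microglia-like cells. Both Cx3cr1 and Ctss are among the markers by which this class was named, so their shares there carry no weight. Cxcr2 had 25 UMIs in all cells.

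The 2 assays gave different levels for the microglial ligands at P30. In the whole KO single-cell library at P30, Ccl4 was at 32.5 CPM, 117 times the mean of 0.279 CPM in bulk KO retina, although the summed microglia and macrophage markers were 1.37 times as high (390.8 against 285.4). The same ratio was 53.0 for Ccl3, 28.1 for Ccl2, 24.9 for Ccl12 and 12.6 for Ccl5. It was 7.68 for Cxcl1, 1.21 for Cxcl10, 1.04 for Cxcl16 and 0.178 for Cx3cl1. In WT, Ccl4 was at 7.93 against 0.0453 CPM (175 times), with marker sums of 73.7 and 79.0. Ccl3 was at 3.48 against 0.00881 CPM in WT (395 times), the bulk level resting on 1 count. The WT ratio was 6.21 for Ccl12 and 4.45 for Ccl5, from 2 and 1 UMIs, and Ccl2 had 0 UMIs in the WT P30 library. The WT and KO ratios of the microglial ligands were thus unlike. The papain-dissociated cells and the RNAlater-held retinas differ in handling, library chemistry and counting at the same time, and these cannot be told apart.

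**Figure D4:**
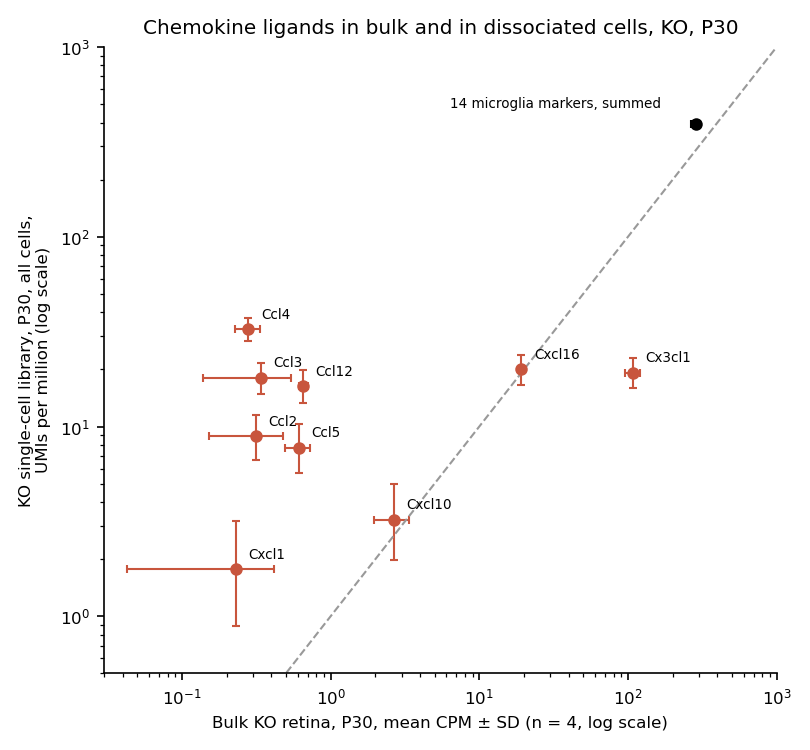
Level of each ligand in the whole KO P30 single-cell library (vertical, CPM, log axis, bars exact 95% intervals) against its mean in bulk KO retina at P30 (horizontal, CPM, log axis, bars SD over 4 libraries); the dashed line marks equal values and the black point is the sum of 14 microglia and macrophage markers. Ccl4, Ccl3, Ccl2 and Ccl12 lie 24.9 to 117 times above the line, Cxcl10 and Cxcl16 close to it, and Cx3cl1 below it.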

How the data were processed

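Bulk RNA-Seq of retina and RPE (16 libraries) and single-cell RNA-Seq of retina (6 libraries) were analysed. The authors deposited raw gene counts for the bulk libraries. The submitters' processing notes name mm10. The aligner and counter of the bulk reads were not given in the sources used here. For the single cells the authors deposited natural log values made with Cell Ranger 2.1 and Seurat 3.2.2. These had been scaled to 10000 per cell and log-transformed 2 times. After 2 inverse steps 99.99998% of 46532493 values were whole UMIs within 0.01. Symbols and exon lengths came from the GENCODE annotation of GRCm38.

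Counts were tested with edgeR 4.0.16 (R 4.3.3; filterByExpr with a minimum of 10 counts, TMM, quasi-likelihood test, Benjamini-Hochberg), by tissue and as a genotype by tissue interaction. CPM and RPKM use TMM-scaled library sizes. The scripts were tested on simulated data. Alternatives were size factors, library totals, other filters, DESeq2 1.42.0, limma-voom 3.58.1, a replicate block and leaving out each library. Cells were clustered on 2000 variable genes and 30 components (15 neighbours, leidenalg 0.10.2, resolution 1), and no doublet caller was run. A class is named from markers when at least 3 are detected.

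WT and KO retina libraries of the same number deviated together (r = 0.34, 0.13, 0.23 and 0.22 for numbers 1 to 4), as did RPE libraries (0.60, 0.58, 0.73 and 0.34). The KO library that correlated best had the same number for 3 of the 8 WT libraries. The study's methods give 4 mice per group, while the labels tie no library to a mouse, so p-values measure the spread between libraries.

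The ligands and all gene lists were chosen with earlier results of these data known. Named genes are the 9 ligands, their receptors (1 result is not reported here), Adipor1, and from each list the up to 5 tested genes with the smallest p in retina and 3 in RPE, of which some are printed. Adam10 and Adam17, and the genes of the last part on other chemokines, were named after their values were seen.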

Additional observations from a re-analysis of the deposited data

Results flagged for a closer look

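In each bulk group of 4 libraries the highest and lowest values of every ligand were compared with the rest by Dixon's ratio at its 95% limit, over 36 groups. This marks about 1 in 20 groups by chance. Ccl2 in WT retina library 3 (0.0377 CPM) and Ccl3 in WT retina library 2 (0.0353 CPM) were marked, and each is 1 count beside 3 libraries with none. Ccl4 in WT RPE library 4 stood at 0.262 CPM, 5 counts, with a gap of 0.905 of the group's range. Cxcl10 in KO RPE library 3 stood at 1.78 CPM, 47 counts, with a gap of 0.878.

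The KO effect on Cxcl10 differed between tissues, with a log2 difference of RPE minus retina of -4.83 (edgeR interaction, adjusted p = 0.0043). All 4 KO retina libraries were above all WT retina libraries, whereas the RPE libraries overlapped.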

How the results depend on the processing

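Of the ligands called in the retina, the count of 3 became 0 when at least 10 counts were required in every library, which leaves Cxcl16 and Cx3cl1 to test with edgeR, and 7 with no filter on low counts. It was 3 to 4 when each library was left out in turn. In the RPE the count of 1 became 0 with 10 counts in every library, 2 with DESeq2 (Cxcl16, adjusted p = 0.00637) and 3 with both tissues in one fit, and 0 to 2 without single libraries. The interaction count of 1 became 2 with library totals (Ccl3, adjusted p = 0.0466) and 0 with 10 counts in every library, and was 1 to 2 without single libraries. With the replicate number as a block the counts were 3, 1 and 1, as without it, and the block changed no call of a ligand.

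The log2 fold change of Cxcl10 in the RPE turned to -0.29 without KO library 3 (-0.29 to 0.79 without single libraries). The difference between tissues turned to -0.0055 for Cxcl16 and -0.00087 for Cx3cl1 with library totals, and to -0.088 for Cx3cl1 without WT RPE library 4 (-0.088 to 0.475 without single libraries). None of these was called. Cxcl16 in retina passed the minimum fold with library totals (log2 fold change 0.69). Retina Cxcl10, Ccl12 and Ccl5 kept their calls in all 16 alternatives in which they could be tested, with adjusted p of at most 0.00138.

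The number of ligands with over 50% of their UMIs in microglia-like cells was 5 under each clustering and cell filter tried. The largest move was Ccl5 from 77.1% to 58.6% when the class was taken as cells with 2 of 5 microglia genes. The settings for Müller-like cells, the leaving out of single cells and of the T and NK cell were added after seeing the data. Low counts limit the retina comparison for Ccl2, Ccl3, Ccl4 and Cxcl1, with 1 to 5 WT counts each. In the single cells, 4 WT microglia-like cells at P30 limit any level at that age.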

Other observations

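Other chemokines of the list had sources of their own, named here after their values were seen. Ccl7, a monocyte attractant beside Ccl2, had 95.9% of its 219 UMIs in microglia-like cells, and Ccl6 had 97.1% of 104. Cxcl2, a neutrophil attractant related to Cxcl1, had 80.0% of its UMIs in microglia-like cells, where Cxcl1 had none. Pf4 had 96.7% of its UMIs in the same class. Ccl9 had 84.4% of its 1177 UMIs in cone-like cells, Cxcl12 81.1% in endothelial-like cells and Cxcl14 91.0% in amacrine-like cells. Lif, a cytokine of the inducing list that rose in bulk KO retina from 0.625 to 4.80 CPM (edgeR adjusted p = 2.24e-06), had 96.7% of its UMIs in Müller-like cells. Osmr had 64.1% there.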
